A study of Mus musculus with 6 samples.

Results

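The chromatin regulators and histones of fetal (FLCs) and adult (ALCs) Leydig cells of the mouse, the steroid-making cells of the testis, are described here, as the genes whose symbol begins with the name of a histone, an HMG protein or one of the main families of chromatin enzymes, remodellers and readers. The symbols were Hist, H1f, H2af and H3f for histones, Hmga, Hmgb and Hmgn for HMG proteins, Dnmt and Tet for DNA methylation, Ezh, Eed, Suz12 and Cbx for Polycomb and heterochromatin proteins, Smarc, Chd and Arid for remodellers, Kmt2, Setd, Kat, Kdm, Hdac and Sirt for histone-modifying enzymes, and Brd and Ing for readers. The rule found 121 genes of 22 families among 10580 listed genes, or 1.14%, and was applied to names alone.

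The series compared Leydig cells of XY mice at E18.5, the FLC group, with those of mice at P100, the ALC group, with 3 libraries each. All animals of both groups carried a green fluorescent protein transgene under the control of Nr5a1, heterozygous and from transgenic fathers mated with CD-1 outbred females for the embryos, and no treatment is named. Cells with strong fluorescence were sorted, and for the fetal stage the cells of several sorts were pooled to reach enough RNA. Nr5a1 also drives expression in Sertoli cells, at a lower level, so that the sort rests on the strength of the fluorescence.

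The level of a gene is given as the authors' mean over all 6 libraries of normalized counts, that is read counts divided by a size factor for each library. Values for single libraries are not analysed here, so no SD is given, no difference between FLCs and ALCs was tested, and an order of 2 genes is an order of pooled means with no test. All 10580 rows of the table have an adjusted p under 0.05 in the authors' comparison of both stages, in either direction, so that a row means a gene past that value. A gene of these families without a row is therefore not analysed here, whatever its level, and 119 of the 218 coding symbols of the GENCODE vM21 annotation that match the rule had a row (54.6%), against 46.3% of all coding symbols of the annotation, and this share was not tested. For comparisons between genes the mean was divided by the length of the gene's merged annotated exons on GRCm38 and is given as normalized counts per kb. All 121 genes had a gene model, 120 by symbol and Setd8 by its older symbol.

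Chromatin is DNA wound around octamers of core histones and closed by a linker histone of the H1 type. Most core histone protein is made during DNA replication from clustered Hist genes, whose mRNAs end in a conserved stem-loop in place of a poly(A) tail, whereas variant histones such as H3.3 are made throughout the cell cycle from polyadenylated mRNAs and serve cells that divide little. Enzymes add or remove methyl and acetyl groups on histones and DNA, reader proteins bind these marks, and remodellers move or exchange nucleosomes with the energy of ATP.

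Chromatin genes lay high in the table. The median member had a level of 1943 normalized counts (quartiles 372 and 3326), against 679 for all listed genes (quartiles 119 and 1928), and stood at percentile 75.2 of the table. Of the members, 80 (66.1%) lay above the median of the listed genes and 62 (51.2%) above their upper quartile, and 8 lay below their lower quartile. Member transcripts were longer, with a median exonic length of 5331 bases against 4263, and per kb the median member had 258 against 147, at percentile 63.3. Above the per-kb median of the table lay 82 members (67.8%). The members together held 1.23% of the summed level, close to their 1.14% share of the genes, since the highest genes of the table, up to 350200 normalized counts, were not among them.

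The highest member was H3f3b with 13879 normalized counts, followed by the remodeller Chd4 with 12658, and both were among the highest 286 genes of the table (2.70%). H1f0 came next with 8835. Together these 3 genes held 13.0% of the summed level of the members, and the 10 highest members held 27.9%. At the other end, Hist1h4k was the only member under 10, with 3.28, and 6 members lay under 100. By role, remodellers held the largest part of the members' sum (27.0%, 22 genes), ahead of the Kmt2 and Setd methyltransferases (15.9%, 15 genes) and the demethylases (12.4%, 14 genes). H3.3, with 2 genes, held 5.50%, and the 9 listed replication-dependent histones held 3.15%. These parts are of normalized counts, not divided by length. Of the coding symbols of the annotation, 8 of 67 for Hist and 2 of 2 for H3f had a row, against 46.3% of all. The parts therefore do not rank H3.3 mRNA against replication-dependent histone mRNA.

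**Figure D1:**
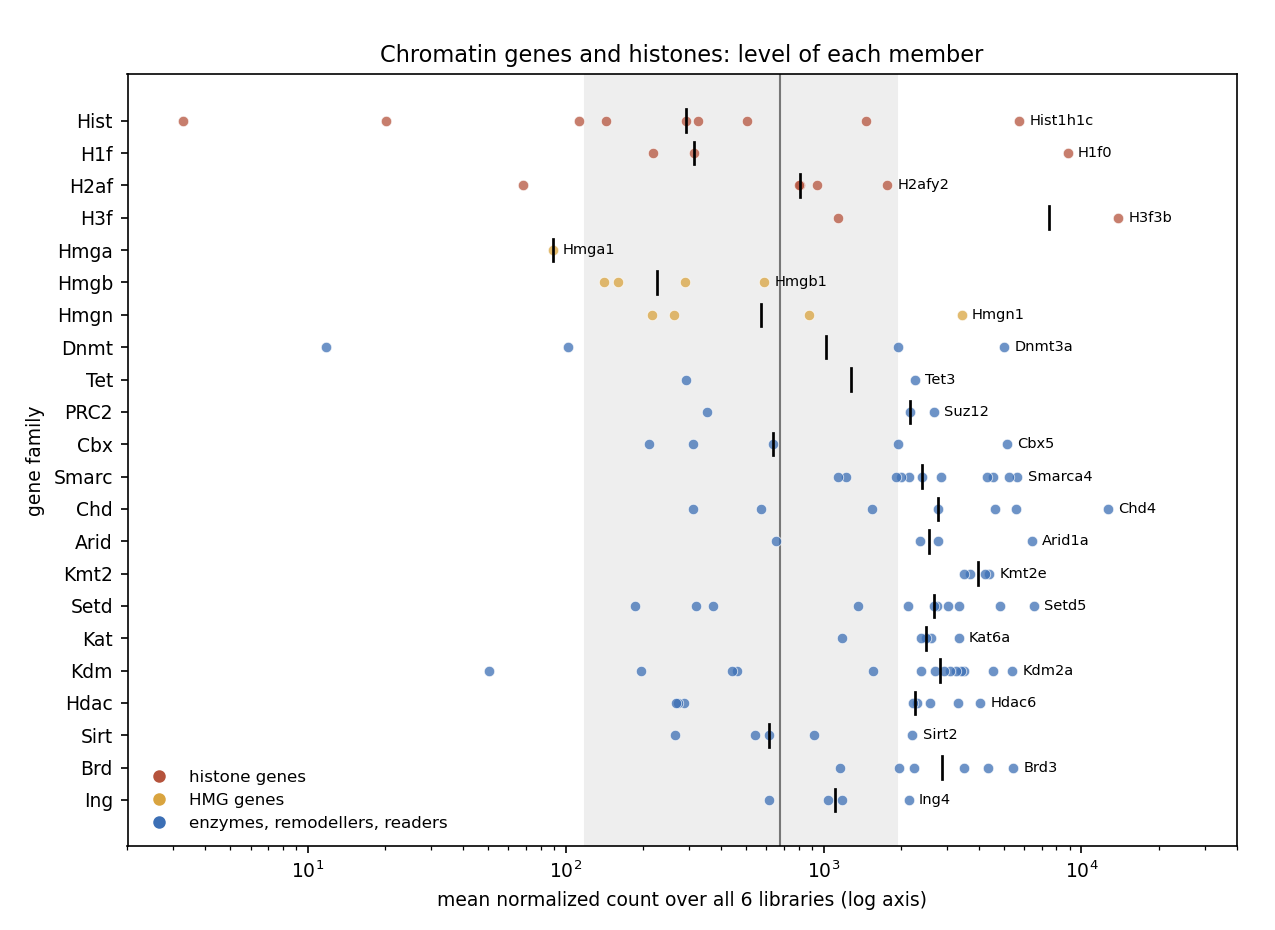
Level of each of the 121 chromatin and histone genes by family, as the mean normalized count over all 6 libraries on a log axis, with a black bar at the family median, a grey line at the median of all 10580 listed genes (679) and a grey band between their quartiles (119 and 1928). The families of enzymes and remodellers lie mostly right of the grey line, HMG genes mostly left of it, and H3f3b, Chd4 and H1f0 furthest right.

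The 2 genes of the replacement histone H3.3, H3f3b and H3f3a, encode the same protein and stood far apart in level. H3f3b, on chromosome 11 from 116021912 to 116027962 of GRCm38 on the minus strand, had 4664 normalized counts per kb and was the highest member per kb, at rank 156 of the table. H3f3a, on chromosome 1 from 180800832 to 180813943 on the minus strand, had 1138 normalized counts, or 325 per kb. The ratio of H3f3b to H3f3a was 12.2 in normalized counts and 14.4 per kb. Their reads can be told apart from each other, since their coding sequences differ at 95 of 408 bases (76.7% identity). H3f3a had a copy elsewhere for 12.7% of the 50-base windows of its coding transcripts, in 38 other genes. H3f3b had one for 8.40%, in 3 other genes. Only exact copies were counted, so reads shared with near copies are not covered.

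The promoter windows of both H3.3 genes are shown so that 2 genes of the same protein can be compared in sequence beside their levels. They reach from 250 bases before to 50 bases after the RefSeq start, on the minus strand of GRCm38.p6, at chr11:116024455-116024754 for H3f3b and chr1:180813556-180813855 for H3f3a. Capitals mark the letters TATAAA and CCAAT, or CCAAT on the opposite strand.
H3f3b: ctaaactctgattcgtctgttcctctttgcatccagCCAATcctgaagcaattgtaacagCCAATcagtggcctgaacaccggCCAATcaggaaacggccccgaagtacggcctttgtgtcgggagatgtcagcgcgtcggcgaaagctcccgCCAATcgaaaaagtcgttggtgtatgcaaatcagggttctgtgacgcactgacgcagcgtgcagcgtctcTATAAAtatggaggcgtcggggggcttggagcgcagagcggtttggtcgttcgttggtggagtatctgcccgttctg
H3f3a: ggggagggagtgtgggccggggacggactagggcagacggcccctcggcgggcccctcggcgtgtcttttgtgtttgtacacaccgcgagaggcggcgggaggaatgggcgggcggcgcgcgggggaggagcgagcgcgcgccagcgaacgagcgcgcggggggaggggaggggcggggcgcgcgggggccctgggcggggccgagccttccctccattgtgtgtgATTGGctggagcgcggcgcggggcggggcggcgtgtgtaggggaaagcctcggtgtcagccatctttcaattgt
The H3f3b window holds TATAAA and several CCAAT, and its GC content is 55.0%. The H3f3a window holds no TATAAA and a single CCAAT, on the opposite strand, and its GC content is 74.0%. Among all promoter windows from RefSeq, 13.6% hold TATAAA on either strand and 37.4% CCAAT, and a match of letters does not show that a factor binds there.

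Linker histones of the H1 type formed a high and a low pair per kb. H1f0, the replacement H1 of cells that have left the cycle, had 4299 normalized counts per kb, and its exons, on chromosome 15 from 79028450 to 79030504, share no 50-base window with another gene. Hist1h1c, a replication-dependent H1 gene on chromosome 13 from 23738808 to 23740367, had 5733 normalized counts or 3675 per kb. H1fnt, an H1 of spermatids, had 314 normalized counts or 239.8 per kb, and H1fx, a distant H1 variant, had 217 or 179. The level of H1f0 was 24.1 times that of H1fx per kb of exons and 39.4 times per kb of coding sequence.

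Among H2A variants, H2afy2, which encodes a macroH2A found on silent chromatin, was highest with 812 normalized counts per kb. H2afx, the variant phosphorylated at DNA breaks, had 581 and H2afv, an H2A.Z, had 578. H2afj had 441. H2afb1, a short H2A variant of testis on chromosome X, had 68.0 normalized counts or 195 per kb, with 43.8% of its windows shared with its relatives H2afb2 and H2afb3. All 5 lay above the per-kb median of the table, and 4 of them above its median in normalized counts.

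The replication-dependent histones spanned the widest range of any family as a ratio of highest to lowest, from 3.28 to 5733 normalized counts, and 2 of the 9 lay above the median of the table. Hist1h1c stood apart. After it came the H2B gene Hist1h2bc with 1466 normalized counts or 1268 per kb, and the H2B gene Hist2h2be with 505 or 193 per kb. The level of Hist1h2bc is uncertain, since it shared 30.1% of its windows with 100 genes elsewhere. Hist1h2al, which the annotation lists as a processed pseudogene of H2A, had 325 normalized counts, Hist3h2a, another H2A gene, 292, and the H2B gene Hist2h2bb 143. The H3 gene Hist2h3c2 had 112. Both H4 genes were the lowest of the family, with 20.2 normalized counts for Hist1h4h and 3.28 for Hist1h4k.

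The stem-loop of the histone mRNAs was looked for as GG, any 2 bases, CTTTT, any base, AG, any 2 bases and CC, on the sense strand of the annotated transcripts. It was found in 44 of the 67 coding Hist genes of the annotation (65.7%), in 72 of all 21901 coding genes (0.329%), and in 4 of the listed Hist genes. These 4 are printed, with 6 bases to each side and the stem-loop in capitals, since they show which end of the transcript the annotation gives these genes.
Hist1h1c: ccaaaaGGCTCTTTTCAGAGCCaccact
Hist1h4h: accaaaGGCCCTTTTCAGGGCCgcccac
Hist2h3c2: cacaaaGGCTCTTTTCAGAGCCaccaca
Hist3h2a: accaaaGGCTCTTTTCAGAGCCacccac
Hist1h4h ends 46 bases after the stem-loop. In Hist1h1c a further 840 annotated bases follow, in Hist2h3c2 377 and in Hist3h2a 1643, so that their gene models hold longer forms. The annotated transcripts of Hist2h2be, of 2620 bases, and Hist1h2bc, of 1156 bases, hold no match. The models of Hist1h4k (312 bases) and Hist2h2bb (381 bases) end with the coding sequence, so their windows cannot hold the stem-loop. The labels name a library kit for total RNA that depletes ribosomal RNA, the study's results speak of poly(A)+ RNA, and these pooled values do not settle whether transcripts without a poly(A) tail were captured.

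Close copies add uncertainty to single histone and HMG genes. Of 28 histone and HMG members, 11 shared over 20% of their 50-base windows, the length of a sequenced read end, with exons of a gene elsewhere, against 5 of the 93 other members. The shared part was 71.5% for Hist1h4k, 67.6% for Hist1h2al, 63.5% for Hist2h3c2, and 55.0% for Hmga1, an architectural HMG protein. Hist1h4h shared 45.8% and is 95.5% identical with Hist1h4k over the coding sequence. Hist2h2bb shared none of its windows with a gene elsewhere, but 53.6% with a gene that overlaps it. Hist3h2a shared 29.5% in this way, Setd1a 51.9% and Ing4 90.8%. The levels of these genes, and of those sharing over 20% of their windows, are uncertain where the authors' counting split or dropped such reads. With genes elsewhere, 74 members shared no window and 93 less than 5%, and 68 members shared no window with any other gene, overlapping or elsewhere. A further scale, given for some pairs only, divides the mean by the length of the windows of the coding transcripts that no other gene holds. The mean still holds any reads counted from shared windows. Exons of noncoding transcripts are left out, so a ratio can change where no window is shared. Ratios printed without this scale can change too, as for Tet3 to Tet1 (7.11 per kb of exons, 9.98 here) and Kdm5c to Kdm5d (6.26 and 3.54).

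**Figure D2:**
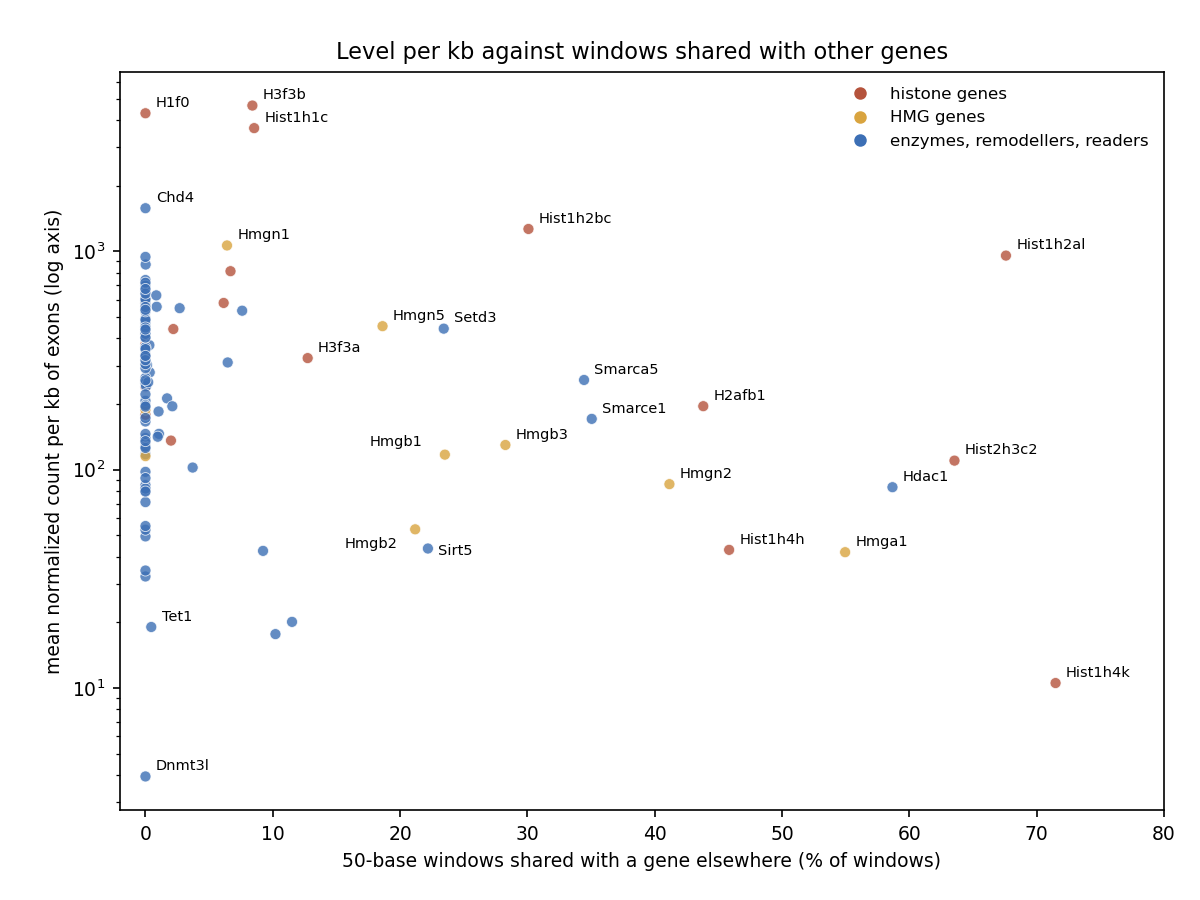
Mean normalized count per kb of exons (log axis) of each of the 121 members against the percent of its 50-base exonic windows that also occur in a gene elsewhere. Most enzymes, remodellers and readers sit at or near 0%, and 5 members lie over 50%, of which Hdac1 is the only one that is no histone or HMG gene.

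HMG proteins, abundant non-histone proteins that bend DNA or bind nucleosomes, had the lowest median of all roles in normalized counts (263), though per kb their median of 117 was above that of the DNA methylation genes (77.6). Of the 9 genes, 2 lay above the median of the table in normalized counts. Hmgn1, a nucleosome-binding HMG, was highest with 3432 normalized counts or 1065.5 per kb, which was 12.4 times its paralog Hmgn2 with 85.9 per kb. Hmgn2 shared 41.2% of its windows with gene copies, and per kb of unshared windows Hmgn1 had 1689.8 and Hmgn2 211. Hmgn5, on chromosome X, had 455 per kb and Hmgn3 had 115.

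Among the DNA-bending Hmgb genes, Hmgb1 was highest in normalized counts, with 589, but shared windows with 130 other genes. Per kb of exons Hmgb4, known from testis, came first with 188, before Hmgb3 with 129.8, Hmgb1 with 117 and Hmgb2 with 53.3. Per kb of coding sequence Hmgb1 was first with 913, before Hmgb3 with 483, Hmgb4 with 259 and Hmgb2 with 254. The order thus depended on the scale. Hmga1 had 89.0 normalized counts, or 41.9 per kb.

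Of the enzymes of DNA methylation, Dnmt3a, Dnmt1 and Tet3 were high beside their relatives Dnmt3b, Dnmt3l and Tet1. Dnmt3a, a de novo DNA methyltransferase on chromosome 12 from 3806007 to 3914443, had 5023 normalized counts, and Dnmt1, which copies methylation after replication, had 1943. Per kb of exons they were close, with 302 and 263, for exons of 16642 and 7377 bases, whereas per kb of coding sequence Dnmt3a was 4.61 times as high as Dnmt1. Dnmt3b, the second de novo enzyme, had 102 normalized counts, and Dnmt3a was 15.0 times as high per kb of exons and 46.4 times per kb of coding sequence. Dnmt3l, the cofactor that directs methylation in germ cells, had 11.7 normalized counts. Of the TET dioxygenases, which oxidise 5-methylcytosine, Tet3 had 2257 normalized counts and Tet1 294, a ratio of 7.11 per kb. Neither TET gene reached the per-kb median of the table.

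Polycomb repressive complex 2 writes the repressive mark H3K27me3. Its catalytic subunit of resting cells, Ezh1, had 292 normalized counts per kb, 5.50 times its paralog Ezh2 with 53.1. Ezh2 is the subunit best known from cycling cells. The ratio was 6.09 per kb of coding sequence and 3.18 per kb of unshared windows. Neither gene shares a window, so the lower ratio stems from the exons left out on that scale. Suz12, the scaffold of the complex, had 540.4 per kb. Among CBX proteins, which read methylated histones, the heterochromatin proteins Cbx5 (569.7 per kb) and Cbx1 (453) were above the Polycomb members Cbx7 (97.8), Cbx8 (85.0) and Cbx2 (49.5). Per kb of unshared windows Cbx1 stood above Cbx5, with 798 against 568. Cbx1 shares no window and Cbx5 0.0221%, so this order too stems from the exons left out. All 3 Polycomb CBX genes lay below the per-kb median of the table. The cycling genes Mki67, Top2a, Ccnb1 and Cdk1 ranged from 72.8 to 842 normalized counts in the same libraries, and their part in the levels of Ezh2, Dnmt1 or the replication-dependent histones was not tested.

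**Figure D3:**
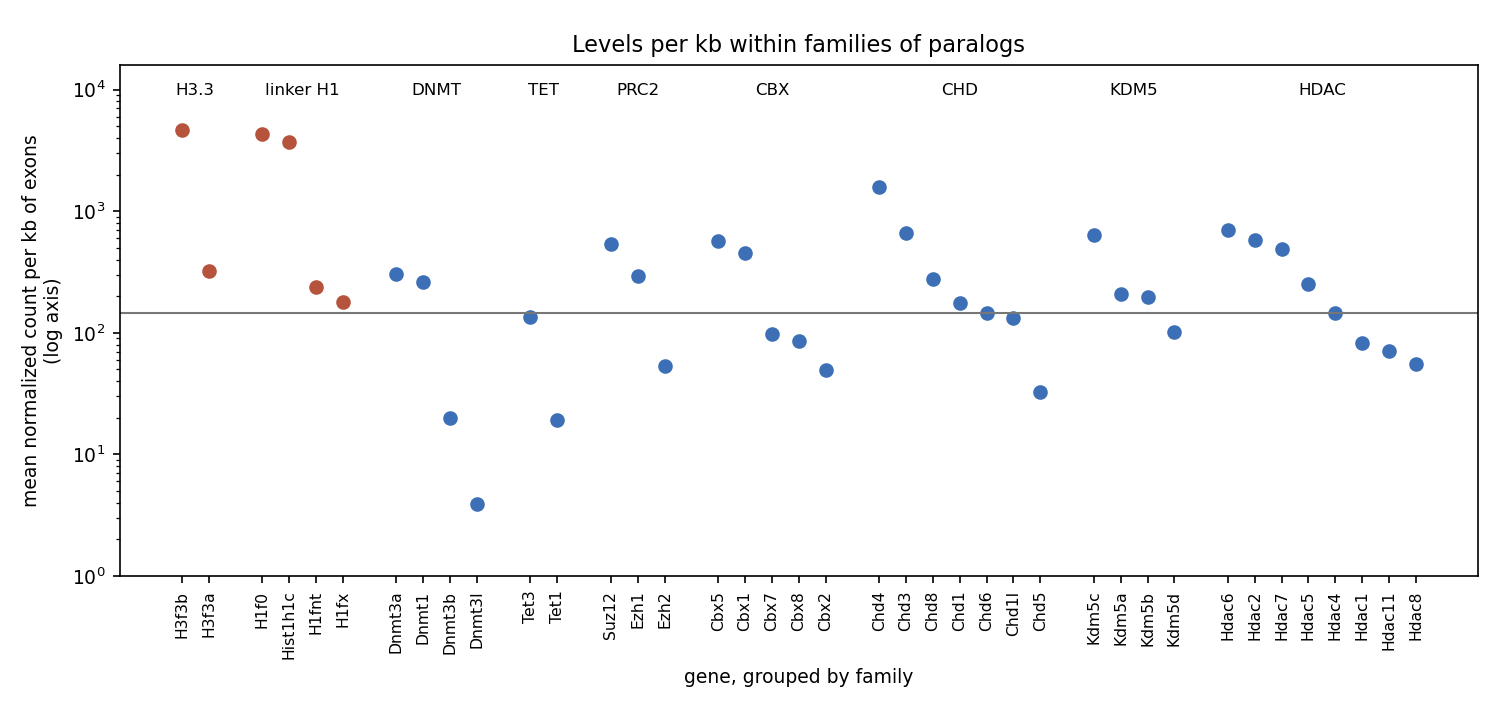
Mean normalized count per kb of exons over all 6 libraries, on a log axis, for the histones H3.3 and H1 (red) and for 7 families of enzymes, Polycomb proteins and remodellers (blue), with a grey line at the median of all listed genes (147). In the families shown, the highest paralog lies well above the lowest. Examples are H3f3b over H3f3a, H1f0 over H1fx, Chd4 over Chd5, Kdm5c over Kdm5d and Dnmt3a over Dnmt3l. Other paralogs lie close to the highest, as Dnmt1 does to Dnmt3a and Hist1h1c to H1f0.

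In normalized counts the 3 remodeller families had medians between percentiles 80.2 and 83.0 of the table, but per kb the Chd and Arid medians stood at 54.4 and 57.1. All 11 Smarc genes, subunits of SWI/SNF complexes and their relatives, lay above the median of the table, from 1137 normalized counts for Smarce1 to 5642 for Smarca4. The SWI/SNF ATPase Smarca4, on chromosome 9 from 21616169 to 21704230, had 871 per kb, and its alternative Smarca2 had 317, a ratio of 2.75 that was 1.23 per kb of coding sequence. The core subunit Smarcc2 had 944 per kb, the highest of the family, and its paralog Smarcc1 had 549.8. Of the Smarcd accessory subunits, Smarcd3 led by normalized counts (2851 against 2417 for Smarcd2), whereas Smarcd2 led per kb of exons (673 against 557), and Smarcd1 had 532. Per kb of coding sequence Smarcd2 was at 0.771 times Smarcd3, and at 0.519 times per kb of unshared windows, though neither gene shares a window. The imitation switch ATPase Smarca5 had 258 per kb and Smarce1 had 171, with 34.4% and 35.1% of windows shared with copies. Smarcal1, a DNA annealing helicase, had 332 per kb and Smarcad1, a remodeller of heterochromatin and repair, had 91.5.

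Chd4, on chromosome 6 from 125095981 to 125130591, the ATPase of the NuRD remodelling and deacetylase complex, had 1578 normalized counts per kb, the fourth-highest member on that scale. Its paralog Chd3 had 657 per kb, a ratio of 2.40, and Chd5, the paralog known from brain and testis, had 32.4, a ratio of 48.7. The other CHD genes lay between, with Chd8 at 279 per kb, Chd1 at 177, Chd6 at 146 and Chd1l at 133. Of the ARID genes, Arid1a, a subunit of one form of SWI/SNF, had 6405 normalized counts or 558 per kb. Arid2, from the other form, had 258 per kb, Arid4b 139.7 and the transcription factor Arid3a 118.

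Histone methyltransferases ranged narrowly for Kmt2 and widely for Setd. The 4 Kmt2 genes, relatives of trithorax that methylate H3K4 or, in the case of Kmt2e, read it, lay between 3493 (Kmt2b) and 4379.6 (Kmt2e) normalized counts, with Kmt2d at 4231 and Kmt2a at 3693. Per kb they ranged from 212 (Kmt2d) to 419 (Kmt2e). Among the 11 Setd genes, Setd5 was highest in normalized counts, with 6549.7, and Setd8, the H4K20 monomethyltransferase, was highest per kb, with 629. Setd2, which writes H3K36me3, had 4822 normalized counts or 448 per kb, and Setd3, a histidine methyltransferase of actin, had 443 per kb. The catalytic subunits Setd1a and Setd1b of the COMPASS complexes had 404 and 252 per kb, in the reverse order of their normalized counts (2742 and 3037), and the level of Setd1a is uncertain for its overlap with another gene. Setdb1, which writes H3K9me3, had 310.0 per kb against 79.4 for Setdb2. Setd7 (126 per kb) and Setd4 (34.5) lay below the per-kb median of the table and Setd6 (195) above it.

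Acetyltransferases were all above the median of the table in normalized counts, from 1181 for Kat5, the catalytic subunit of the Tip60 complex, to 3336 for Kat6a. Per kb the SAGA-type enzymes Kat2a (719) and Kat2b (535) led, and Kat6a had 363, Kat5 336 and Kat6b 142. Kat2a and Kat2b stood in the opposite order by normalized counts, with 2502 and 2605, and per kb of coding sequence, with a ratio of 0.941.

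The 14 demethylases ranged from 50.5 to 5379 normalized counts. Kdm2a, an H3K36 demethylase, was highest in normalized counts, followed by the H3K4 demethylase Kdm5c with 4555 and the H3K9 and H3K36 demethylase Kdm4a with 3501. Per kb Kdm5c led with 641, before Kdm4a with 605. Kdm4d, known from testis, was lowest with 50.5 normalized counts, and Kdm8 had 196. Some further pairs were chosen after their values were seen. Kdm2a was 8.77 times as high per kb as Kdm2b, and the flavin-dependent demethylase Kdm1a was 7.41 times as high as Kdm1b. Kdm5c on chromosome X was 6.26 times as high per kb as its relative Kdm5d on chromosome Y, or 2.93 times per kb of coding sequence. Kdm5d had 1551 normalized counts.

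Of the zinc-dependent deacetylases, Hdac6, a mostly cytoplasmic tubulin deacetylase on chromosome X, was highest with 4056 normalized counts or 697 per kb. The nuclear class I enzyme Hdac2 had 580.1 per kb, 6.98 times its paralog Hdac1 with 83.1, but 58.7% of the windows of Hdac1 occur in gene copies elsewhere, so that the level of Hdac1 is uncertain. Per kb of unshared windows Hdac2 had 621 and Hdac1 348, a ratio of 1.78, and per kb of coding sequence the ratio was 8.95. The scale of unshared windows puts Hdac1 too high if its mean holds reads from shared windows, which is not known. Per kb of exons Hdac8, another class I enzyme, had 55.2 and Hdac11 71.0. The class IIa enzymes, which act as regulated corepressors, had 492 per kb for Hdac7, 253 for Hdac5 and 146 for Hdac4. Of the NAD-dependent sirtuins, Sirt2 was highest with 439 per kb, and the nuclear Sirt1 and Sirt6 had 173 and 195. The mitochondrial Sirt4 had 257 and Sirt5 43.5, with 22.2% of windows of Sirt5 shared.

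Readers of acetylated histones lay above the median of the table in all 6 cases, from 1156 normalized counts for Brd9, a subunit of a SWI/SNF form, to 5427 for Brd3. Per kb the BET protein Brd3 was highest with 739.8, and values were 428 for Brd7, 417 for Brd1, 185 for Brd8 and 166 for Brd9. The ING proteins, which read H3K4me3 for acetyltransferase and deacetylase complexes, had 401 per kb for Ing4, 305 for Ing1, 249 for Ing5 and 128 for Ing3, where the place of Ing4 is uncertain, since 90.8% of its windows also belong to a gene that overlaps it.

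Division by length reordered the families. Of the 22 families, 13 stood at a lower percentile per kb than in normalized counts and 9 at a higher one. The Chd median went from percentile 83.0 to 54.4, Tet from 64.9 to 37.5 and Kdm from 83.3 to 60.0, families with long transcripts. In the other direction the H2af median moved from 53.8 to 81.5, Hist from 36.0 to 56.3 and H1f from 37.1 to 61.4. The Smarc median (80.2 and 79.6) and H3f (95.8 and 96.6) stood at nearly the same place on both scales. A median above the middle of the table on both scales was found for 13 families.

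**Figure D4:**
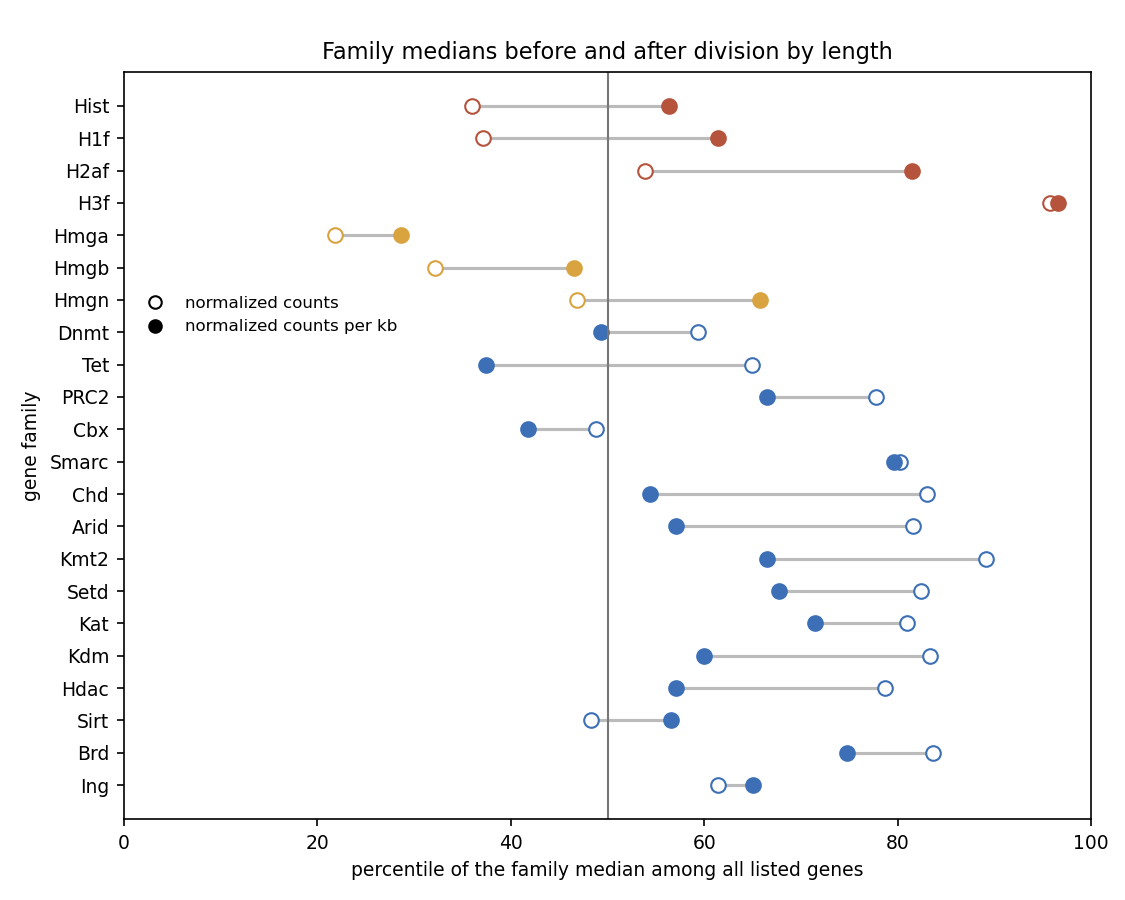
Percentile of each family's median among all listed genes, by normalized counts (open circles) and by normalized counts per kb of exons (filled circles), with a grey line at the middle of the table. Histone families move right and most enzyme families left when length is taken into account, and Hmga, Hmgb and Cbx stay left of the line on both scales.

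Member promoters were rich in CpG. Of the 121 genes 98 had a RefSeq promoter window of 300 bases, with 132 windows in all. The ratio of observed to expected CpG was over 0.6 in 84.8% of them. This compares with 59.5% of the promoters of listed genes and 35.8% of all RefSeq promoter windows. The median GC content was 63.0%, against 59.7% and 52.7%. The letters GGGCGG, a GC box, occurred on either strand in 70.5% of member windows, against 57.6% for listed genes. The letters CCAAT occurred in 9 of 14 histone windows (64.3%) and in 7 of 10 HMG windows, against 37.0% for listed genes. TATAAA was found in 5.30% of member windows, against 7.65% for listed genes, and these shares are descriptions of letters with no test.

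Markers of the labelled cell type were high. All 5 Leydig cell genes asked for, Star, Cyp11a1, Cyp17a1, Hsd3b1 and Insl3, were listed, with 87502 to 283675 normalized counts, and Nr5a1 had 101116. Markers of other testis cells had lower levels in normalized counts. A row means a difference between both stages, which 46.3% of all coding symbols had, so that the number of listed markers says nothing on the presence of a cell type. Of the germ cell markers 5 of 8 were listed, from 184 normalized counts for Ddx4 to 3191 for Prm2, the spermatid protein that replaces histones, and Sycp3, Dazl and Pou5f1 are not analysed here. Per kb the short spermatid genes Tnp1, Tnp2, Prm1 and Prm2 had 2301 to 3570, and 3 members lay above the lowest of them. Macrophage markers were all listed, 4 of 4, with 139 to 982, Sertoli cell markers 2 of 3, Amh with 137 and Dhh with 89.0, endothelial markers 1 of 3 and interstitial progenitor markers 2 of 3. No peritubular myoid marker of 3 had a row. The testis histones H1fnt and H2afb1, with Hmgb4, Kdm4d and Chd5, are members known from germ cells or testis, and the part of germ cell RNA in their levels was not tested. In bulk RNA, fewer cells of a type and less RNA per cell cannot be told apart.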

How the data were processed

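RNA of sorted FLCs and ALCs, 3 libraries per stage, was sequenced by the authors in paired 50-base reads. As the study's methods state, reads were demultiplexed with CASAVA 1.8.2, mapped to GRCm38, counted per gene of the GENCODE annotation, filtered at 10 reads and compared with DESeq2 by the authors. The deposited table of that comparison holds for each gene a signal, the authors' mean normalized count of all 6 libraries. Its 5 other columns hold the authors' fold change, standard error, statistic, p-value and adjusted p-value, and were not used, except that all 10580 rows were checked to lie under an adjusted p of 0.05. The deposited values carry no library of their own, so the comparison of FLCs and ALCs planned here was not run, and the depth of each library is unknown.

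Levels were divided by the union of exons of GENCODE vM21, whereas the study names another release of GENCODE for its counts. Exon lengths and shared windows may thus differ from those of the models used for counting. Windows of 50 bases were compared between transcripts, and motifs were searched in transcripts and RefSeq promoters (GRCm38.p6). Python 3.11.15, pandas 2.3.3 and numpy 2.4.6 were used. The counting of shared windows and the identity were tested on simulated sequences. The motif search, CpG ratio, GC content and merging of exons were checked on short made-up examples. Levels, ranks and percentiles were not tested in this way. The members and lists were chosen with earlier results of these data known. Named are all members of families of up to 12 genes, in larger families the 3 highest and 2 lowest by mean, the 10 highest members, every member under 10, and fixed lists of markers and other chromatin genes. Values of some genes under this rule are not reported here.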

Additional observations from a re-analysis of the deposited data

How the results depend on the processing

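The median level of the members, 1943 normalized counts, was 1954 with genes under 10 left out, 2129.6 without the Hist genes and 258 per kb of exons. The percentile of the median member, 75.2, was 74.2, 77.3 and 63.3 under these alternatives. The share of the summed level, 1.23%, was 1.37% without the 10 highest genes of the table and 1.07% without the 3 highest members. The median stayed above that of the listed genes in each of these. The number of families with a median above the middle of the table was 15 by normalized counts, 17 per kb and 15 with genes under 10 left out. Of the 385 pairs of paralogs ordered per kb of exons, 323 kept their order by normalized counts and 344 per kb of windows not shared with another gene, and 323 of the 377 pairs with coding lengths kept it per kb of coding sequence. The scales by normalized counts and by unshared windows were added after seeing the data, as was the median per kb of coding sequence, 685, and of unshared windows, 369.

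No paired analysis was possible because the deposited values are means over all libraries. For the same reason no replicate was left out. Levels are means over both stages in equal numbers of libraries, so the direction and size of the difference between the stages are not shown here, and the error between libraries behind each level is unknown.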

Other observations

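A list of 33 further genes, chromatin factors outside these families together with Nr5a1, was read beside the members. Of these, 24 had a row, which 46.3% of all coding symbols have, and 21 of them lay above the median of the table, with a median of 2297 normalized counts. The corepressor Ncor1, which brings deacetylases to nuclear receptors, had 8776, and Trim28, the corepressor of zinc finger proteins, had 8595. Nsd1, an H3K36 methyltransferase, had 7885, and Rad21, a cohesin subunit, 4277. The H3.3 chaperones Atrx, Daxx and Hira had 4570.1, 1743 and 1096 normalized counts, and Rnf2, the ubiquitin ligase of Polycomb repressive complex 1, had 3169.

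The factors of the stem-loop of histone mRNAs had fewer normalized counts than the genes of the list named so far. Slbp, the protein that binds it, had 999 normalized counts, or 164 per kb, above the medians of the table (679 and 147). Lsm11, of the particle that cuts the transcript after the stem-loop, had 387, or 59.9 per kb, below both. Other genes of the list also had less than Slbp, as Suv39h1 with 841 normalized counts and Asf1a with 550. Uhrf1, which brings Dnmt1 to replicated DNA, had 276 normalized counts, against 1943 for Dnmt1. The stem-loop letters were also found in annotated transcripts of 2 members that are no Hist genes, H2afx, whose mRNA is known to occur with and without a poly(A) tail, and Smarca2. These levels carry no test and no error between libraries.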
